A study of Rattus norvegicus with 6 samples.

Results

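The 9 genes described here encode enzymes that make or inactivate prostaglandins: Ptgs1 and Ptgs2, Ptgds and Hpgds, Ptges and Ptges2, Ptgis, Hpgd and Ptgr1. They were chosen by name, as the probes whose transcript accession belongs to 1 of these genes, and 11 probes were found for the 9 genes, of 15645 genes named on the array. The genes were proposed with results of this same comparison known, so their differences between the groups are given as a description and not as a test. The RNA came from the renal cortex, where the glomeruli and proximal tubules lie, of male Sprague-Dawley rats bought at 5 weeks of age. Of these, 3 received corn oil as the vehicle for 4 weeks and 3 received the chlorinated fungicide chlorothalonil over the same time, at a dose of 500 mg/kg/day. Every animal was measured on 1 single-colour Agilent array, and the series design names the 3 samples per group as biological replicates.

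Prostaglandins are short-lived signalling lipids. Cyclooxygenases convert arachidonic acid, released from membranes by phospholipases, into the intermediate PGH2, and separate synthases turn that into PGD2, PGE2, prostacyclin or thromboxane. The products leave the cell, act on G protein-coupled receptors nearby, and are taken up and oxidised by 15-hydroxyprostaglandin dehydrogenase and then reduced by prostaglandin reductases. In the kidney these lipids are known for their part in renal blood flow, renin release and the handling of salt and water.

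With chlorothalonil, Ptgds fell by 1.71 ± 0.24 (SE) on the log2 scale, to a signal 3.27-fold lower than with corn oil, and Ptgr1 rose by 1.10 ± 0.06, or 2.15-fold. Ptgds is the lipocalin-type PGD2 synthase, and Ptgr1 is a reductase that acts late in prostaglandin breakdown and also oxidises leukotriene B4. The other 5 genes that could be fitted, Ptgs1, Ptges, Ptges2, Ptgis and Hpgd, had log2 fold changes between −0.48 and 0.09, and the groups overlapped for each of them. The groups were apart for the 2 others, where 27.8% of all features with a gene symbol had groups apart. Hpgds and Ptgs2 were too dim for the fit. Of the 7 fitted genes, 2 passed the threshold, an adjusted p of 0.05 in limma over all features, where 3.12% of 29115 features did, and 2.14% of the 11926 that carry a gene symbol, 1.44% higher and 0.696% lower. Because the genes were proposed with this contrast known, nothing is read from that count. The same holds wherever the text or a figure says that a member passed or did not pass: it is a description.

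All values are log2 of the processed spot signal minus the array's 75th percentile, so 0 is a probe as bright as that percentile, and levels of different probes are not comparable with each other. Between 62.1% and 67.8% of probes were well above background on the 6 arrays, and no probe was saturated. The number of arrays, 3 per group, limits the precision of every value. Markers of cortical cells were present: all 10 listed proximal tubule genes and all 6 podocyte genes were well above background on all 6 arrays. So were the collecting duct gene Aqp2 and the thick limb gene Umod, so this does not tell cortex from the rest of the kidney. The 2 groups lay on 2 slides scanned on different days, and no slide held both groups, so slide and treatment cannot be told apart in any difference given here. Among 8 spike-in controls that were above background on every spot, the difference between the slides, chlorothalonil minus corn oil, ran from −0.34 to 0.05. The array of chlorothalonil replicate 3 is labelled with chlorothalonil in its title, treatment and dose but with ethylenediamine dihydrochloride in its source name. Without it, limma called 182 features in place of 909. Leaving out any 1 of the other arrays also lowered the count, to between 112 and 388. The values of the fitted members are given with and without it, as are Abcc4, Akr1b1 and the 7 fitted receptors. Other values are given with all 6 arrays.

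**Figure D1:**
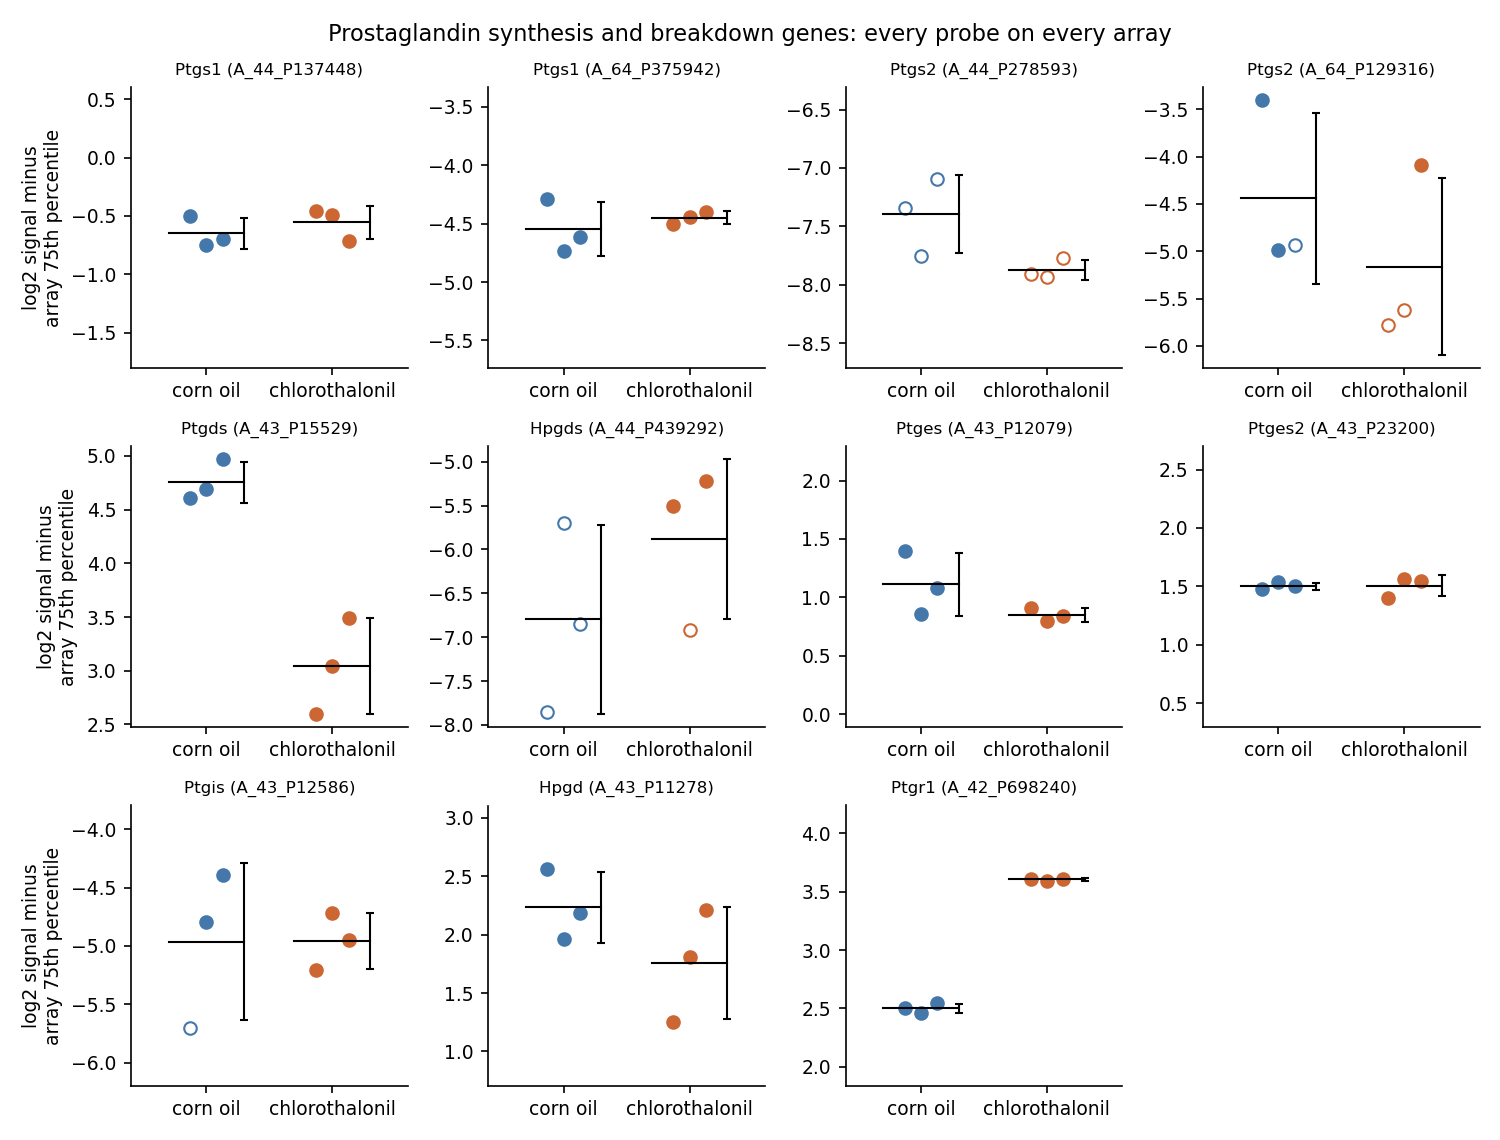
Each panel shows 1 of the 11 probes of the 9 genes, with log2 signal minus the array's 75th percentile on the vertical axis (the range differs between panels) and 1 point per array, filled where the probe was well above background and open where it was not. Horizontal lines are group means and bars are SD (n = 3). Ptgds is lower and Ptgr1 higher on all 3 chlorothalonil arrays, and the 2 groups of every other probe overlap or lie below background.

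Ptgds makes PGD2 and also carries small lipophilic molecules as a secreted protein. Since its signal shows the largest difference of the 7 fitted genes, the 250 bases before its RefSeq gene start are shown, from GRCr8, chr3:28682979-28683228 on the minus strand, 5′ to 3′, with the 3 matches to the E-box, CANNTG, in capitals:

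Ptgds: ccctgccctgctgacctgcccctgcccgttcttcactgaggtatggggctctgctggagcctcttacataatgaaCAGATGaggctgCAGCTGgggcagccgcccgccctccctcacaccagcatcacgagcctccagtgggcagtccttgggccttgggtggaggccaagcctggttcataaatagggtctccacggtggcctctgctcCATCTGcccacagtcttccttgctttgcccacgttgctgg

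The E-box pattern reads the same on both strands, and 65.5% of 33469 promoters of this length hold at least 1, so the matches are common letters and not evidence of a bound factor. The core of the antioxidant response element, TGACNNNGC, searched on both strands, was found in 10.1% of the promoters and in 0 of the 5 genes with a promoter entry, which are Ptgds, Ptgs1, Ptgs2, Ptges and Hpgd. The GC box, GGGCGG, searched on both strands, was in 4 of these 5 windows and in 30.5% of all promoters. In the Ptgds window it starts 151 and 147 bases before the gene start, as its reverse complement, in a pair of matches that share bases, and overlaps no E-box match. The TATA box letters, TATAAA on either strand, were in 0 of the 5 windows and in 12.9% of all.

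Ptgds read 4.61, 4.69 and 4.97 with corn oil replicates 1 to 3 and 2.60, 3.05 and 3.49 with chlorothalonil replicates 1 to 3. Every corn oil array was above every chlorothalonil array, and the closest pair of the 2 groups still lay 1.11 apart, or 2.16-fold. In processed signal units this is 21880, 24685 and 29091 against 5403, 7676 and 9462, so the gene was bright on all 6 arrays and far from background. The chlorothalonil arrays spread more than the corn oil arrays, with an SD of 0.45 against 0.19 (n = 3 each), and replicate 1 was the lowest. Only 14 of 11926 features with a gene symbol, Ptgds included, had a log2 fold change as low. Without chlorothalonil replicate 3 the difference was −1.93 ± 0.19 and Ptgds still passed the threshold. Without corn oil replicates 1, 2 or 3, or chlorothalonil replicates 1 or 2, it was −1.78, −1.74, −1.60, −1.48 and −1.71 in that order, and in each of these 5 fits Ptgds did not pass. It also did not pass when dim probes were kept in the fit.

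Hpgds, the haematopoietic PGD2 synthase known from mast cells, macrophages and T helper 2 cells, is the other enzyme that makes PGD2. It read −7.85, −5.70 and −6.85 with corn oil and −5.51, −6.92 and −5.22 with chlorothalonil. It was well above background on 0 of 3 corn oil arrays and on 2 of 3 chlorothalonil arrays, and the groups overlapped, so it was not in the fit and no fold change is given. Whether it differed was not detectable at this signal.

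Markers of other cells that could hold these enzymes were counted beside Ptgds. In bulk tissue, fewer cells of a type and less RNA per cell cannot be told apart. Over all features with a gene symbol, limma called 2.14%, 18.6% had an unadjusted p below 0.05, and 27.8% had the groups apart. Of 5 measured fibroblast markers, limma called 0 and found 0 with an unadjusted p below 0.05, and all 5 were higher with chlorothalonil by value, with a median log2 difference of 0.26. Their summed level ran from 19.0 to 32.2 times the 75th percentile signal with corn oil and from 29.4 to 37.7 with chlorothalonil. Of 7 endothelial markers, limma called 0 and found 0 with an unadjusted p below 0.05, and the sums overlapped, 32.1 to 37.1 against 29.7 to 36.0. Of 6 podocyte markers, limma called 0 and found 0 with an unadjusted p below 0.05, with sums of 31.8 to 38.9 against 34.3 to 43.1. Of 6 measured macrophage and myeloid markers, limma called 0 and found 1 with an unadjusted p below 0.05, with sums of 89.0 to 97.6 against 86.7 to 110.9. Cd163 and Itgam, defining genes of that list, could not be fitted, and Cd163 was not well above background anywhere. Of the 3 measured mast cell markers, Tpsb2, a tryptase, rose by 0.85 ± 0.12 (SE) with a limma adjusted p of 0.031, while Ms4a2 and Cma1 were not well above background on any array and Cpa3 was on 1 corn oil array. The fitted Tpsb2 probe was dim and well above background on 5 of 6 arrays, so it entered the fit through 1 group only. Tpsb2 was not called when probes had to be well above background on all arrays. The 2 kept Tpsb2 probes gave −0.14 and 0.85, and the call was lost whichever array was left out. The summed level of the mast cell list, 2.83 to 3.13 against 2.72 to 3.02, is nearly all signal of the much brighter Tpsab1 probe and does not show how Tpsb2 moved. Of 4 measured fat markers, limma called 0 and found 1 with an unadjusted p below 0.05. The fat sums were 1.41 to 1.71 against 1.56 to 1.82. Of 7 smooth muscle and mesangium markers, Actg2, a smooth muscle actin, fell by 0.59 ± 0.06 on the log2 scale with a limma adjusted p of 0.0135, a call lost in each fit that left out 1 array other than corn oil replicate 1. Its 3 kept probes ran from −0.59 to 0.06, and the sums of the list were 36.9 to 46.1 against 36.6 to 49.7. The lists with sums apart between the groups were red blood cell, proximal tubule and urothelium. Of 5 red blood cell markers, limma called 0, but all 5 had an unadjusted p below 0.05, all 5 were higher with chlorothalonil with the groups apart, and their median log2 difference was 0.27. Their sums were 482 to 502 with corn oil and 567 to 613 with chlorothalonil. Of 10 proximal tubule markers, limma called 0 and found 4 with an unadjusted p below 0.05, the groups were apart for 5, and the sums were 2009 to 2226 against 2317 to 2428. By value 7 were higher and 3 lower, and Slc5a2 was lower at −0.35 with the groups apart. These sums rest mainly on the brightest probes. Miox, the brightest of the list, had 2 kept probes at −0.08 and 0.17, and those of Slc34a1 gave 0.04 and 0.27. Of 3 measured urothelium markers, limma called 0 and found 1 with an unadjusted p below 0.05, with sums of 0.284 to 0.372 against 0.396 to 0.452. The 2 kept Upk1b probes gave 0.27 and 1.42, and Upk3a was well above background on 5 of 6 arrays. Of 9 measured collecting duct markers, limma called 0 and found 1 with an unadjusted p below 0.05, with sums of 224 to 275 against 235 to 330. That 1 gene, Slc4a1, is also on the red blood cell list. The part of these cell types in the differences of Ptgds and Ptgr1 was not tested.

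Of the cyclooxygenases, the first step of the pathway, Ptgs1 could be fitted and Ptgs2 could not. Ptgs1, the constitutive form, read −0.50, −0.75 and −0.70 with corn oil and −0.46, −0.49 and −0.71 with chlorothalonil on its brighter probe. The groups overlapped, and the log2 fold change was 0.09 ± 0.11 (SE), or 0.17 without chlorothalonil replicate 3. Its dimmer probe gave 0.10 between the group means, again with overlap. Ptgs2, the inducible form, which in the cortex is known from the macula densa, read −3.41, −4.99 and −4.94 with corn oil and −5.78, −5.62 and −4.09 with chlorothalonil on its brighter probe. That probe was well above background on 2 corn oil arrays and 1 chlorothalonil array, and the highest value of each group lay more than 1 log2 unit over the other 2 of that group. Its other probe was below that level on all 6 arrays, with the chlorothalonil values under the corn oil values by 0.02 at the closest pair. No fold change is given for Ptgs2, and a difference was not detectable at this signal. Of the thick limb and macula densa markers, 6 were measured, limma called 0 and found 1 with an unadjusted p below 0.05. Nos1, the defining macula densa gene of the list, did not reach that level on any array.

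The PGE2 synthases gave small values. Ptges, the membrane-bound synthase that works with Ptgs2, read 1.39, 0.86 and 1.08 with corn oil and 0.91, 0.80 and 0.84 with chlorothalonil. Corn oil replicate 1 was the highest, the groups overlapped, and the log2 fold change of −0.26 ± 0.14 (SE) became −0.12 without that array and −0.26 without chlorothalonil replicate 3. Ptges2, a second membrane-associated synthase, read 1.47, 1.53 and 1.50 with corn oil and 1.40, 1.57 and 1.55 with chlorothalonil. Its difference of 0.0020 ± 0.07 was the smallest in size among the 7 fitted genes, and it was −0.02 without chlorothalonil replicate 3. Ptgis, the prostacyclin synthase of vessel walls, was dim, at −5.70, −4.80 and −4.39 with corn oil and −5.20, −4.72 and −4.95 with chlorothalonil. Corn oil replicate 1 was not well above background for Ptgis, which entered the fit because all 3 chlorothalonil arrays were. Its difference was 0.0065 ± 0.35, and it ran from −0.36 to 0.29 as single arrays were left out (0.0011 without chlorothalonil replicate 3), so these arrays limit its size only loosely.

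Of the breakdown enzymes, Ptgr1 rose and Hpgd did not pass, and the difference between them was not tested. Ptgr1 read 2.50, 2.46 and 2.54 with corn oil and 3.61, 3.59 and 3.61 with chlorothalonil. The SD was 0.04 with corn oil and 0.0096 with chlorothalonil, against a difference of 1.10, and the closest pair of the 2 groups lay 1.05 apart. In processed signal this is 5078, 5280 and 5411 against 10918, 11221 and 10248. Ptgr1 passed the threshold in each of the 6 fits that left out 1 array, with log2 fold changes from 1.08 to 1.12, and it was 1.10 without chlorothalonil replicate 3. Of the 11926 features with a gene symbol, 135 had a log2 fold change as high, Ptgr1 included.

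Hpgd, the 15-hydroxyprostaglandin dehydrogenase that performs the first step of inactivation, read 2.56, 1.96 and 2.18 with corn oil and 1.25, 1.81 and 2.21 with chlorothalonil. Chlorothalonil replicate 3 lay above corn oil replicates 2 and 3, and chlorothalonil replicate 1 was the lowest of the 6. The log2 fold change was −0.48 ± 0.28 (SE) and did not pass. It was −0.71 without chlorothalonil replicate 3 and −0.23 without chlorothalonil replicate 1. The array that was lowest for Hpgd was also the lowest for Ptgds, and the chlorothalonil array that was highest for Hpgd was the highest of the 3 for Ptgds.

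**Figure D2:**
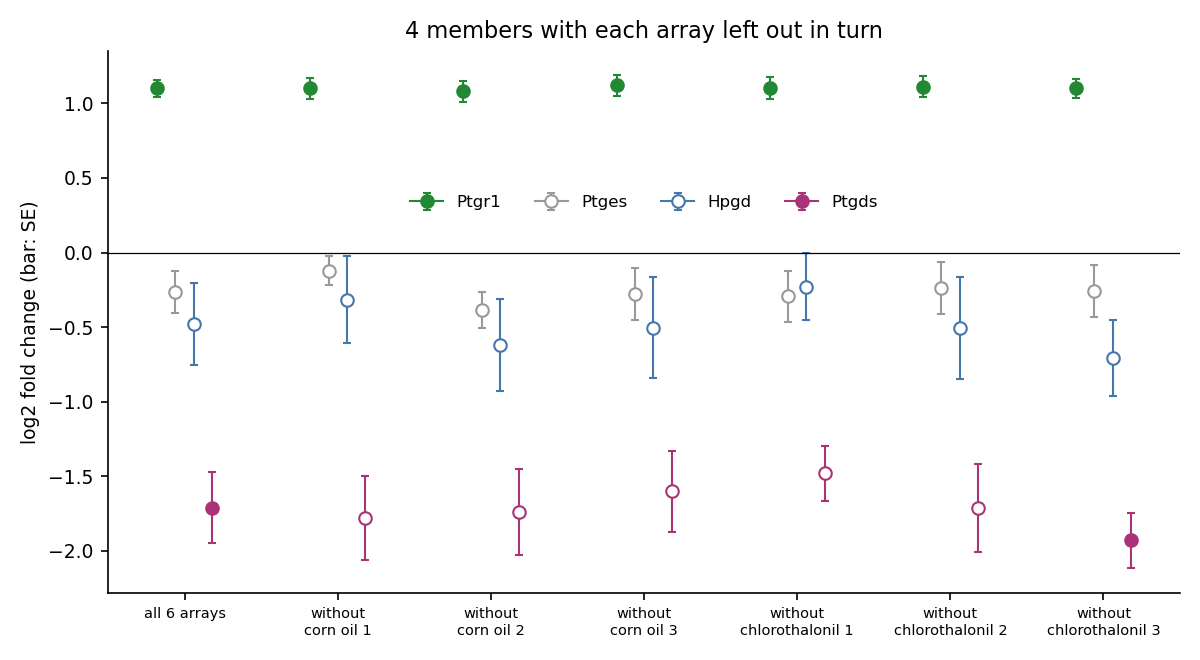
Log2 fold change, chlorothalonil minus corn oil, of Ptgr1, Ptges, Hpgd and Ptgds with all 6 arrays and with each array left out in turn. Bars are SE, and filled points passed an adjusted p of 0.05 in limma over all features. Ptgr1 stays between 1.08 and 1.12, while Ptgds runs from −1.93 to −1.48 and passes with all arrays and without chlorothalonil replicate 3.

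The genes around these enzymes in the pathway were taken from lists of arachidonic acid supply, other prostanoid enzymes, transport, receptors and the other routes of arachidonate metabolism. Of 44 listed genes, 41 had a named probe and 37 could be fitted. Of the 37, 1 rose, 0 fell and 36 did not pass, where 2.14% of all features with a gene symbol passed, 1.44% higher and 0.696% lower. Their median log2 fold change was 0.03, against 0.02 for all features with a gene symbol. Before adjustment, 6 of the 37 had a limma p under 0.05, where 18.6% of all features with a symbol did, and the groups did not overlap for 8, where 27.8% of all such features did not.

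The gene that rose was Abcc4, an exporter of the plasma membrane that carries prostaglandins among other organic anions. Its mean was 2.30 ± 0.05 (SD, n = 3) in the corn oil group and 4.42 ± 0.17 in the chlorothalonil group. The log2 fold change was 2.13 ± 0.10 (SE), or 4.37-fold, with a limma adjusted p of 0.00297, and its 4 kept probes gave 2.12 to 2.33. It passed in each of the 6 fits that left out 1 array, and was 2.16 without chlorothalonil replicate 3. Slco2a1, the transporter that takes prostaglandins into the cell for breakdown, had 0.46 ± 0.41 (adjusted p of 0.589), and its corn oil arrays had an SD of 0.80.

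Of the 11 genes of arachidonic acid supply, 8 were measured and limma called 0 and found 2 with an unadjusted p below 0.05. Mgll, the monoacylglycerol lipase that can free arachidonic acid from the endocannabinoid 2-arachidonoylglycerol, had −0.40 ± 0.13 (SE; adjusted p of 0.168). The other was Pla2g2a, a secreted phospholipase named after its value was seen, at 0.50 ± 0.16. Pla2g4a, the cytosolic phospholipase that feeds the cyclooxygenases, also named after its value was seen, was at −0.14 ± 0.09. Of 7 other prostanoid enzymes, limma called 0 and found 0 with an unadjusted p below 0.05. Akr1b1, an aldo-keto reductase that can form PGF2α, had 0.31 ± 0.27 (adjusted p of 0.574), which became 0.20 when chlorothalonil replicate 3 was dropped. Leaving out corn oil replicates 1 or 2 gave 0.09 and 0.60. The other prostaglandin reductases Ptgr2 and Ptgr3, chosen with their values in view, had −0.02 ± 0.06 and −0.02 ± 0.08. Whether Ptgr1 differs from them in its response was not tested.

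Of 9 prostanoid receptors, 8 had a probe, 7 were measured and limma called 0, with 1 unadjusted p below 0.05. The PGD2 receptors Ptgdr and Ptgdr2 were at −0.03 ± 0.07 (SE) and −0.03 ± 0.10, or −0.05 and 0.03 without chlorothalonil replicate 3, and Ptgdr2 was dim. Of the PGE2 receptors, Ptger4 was at −0.48 ± 0.19 with an adjusted p of 0.236 and Ptger3 was at 0.08 ± 0.09. Without chlorothalonil replicate 3, Ptger4 was at −0.28 and Ptger3 at 0.13, and without chlorothalonil replicate 1 Ptger3 was at 0.0064. Ptger2 was well above background on 1 of 6 arrays and could not be fitted. The prostacyclin receptor Ptgir was at −0.17 ± 0.08 (−0.09 without chlorothalonil replicate 3), the thromboxane receptor Tbxa2r at 0.07 ± 0.12 (0.05 without that array), and the PGF2α receptor Ptgfr at 0.50 ± 0.61 (0.55 without it). The signs of the values for Ptgdr, Ptgdr2, Tbxa2r and Ptgfr changed under some settings.

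The other routes of arachidonate gave no call in limma. Of 5 measured lipoxygenase and leukotriene genes, limma called 0 and found 0 with an unadjusted p below 0.05, and Alox5ap, which presents arachidonic acid to 5-lipoxygenase, had −0.18 ± 0.20 (SE; adjusted p of 0.670). Alox5 itself was not well above background anywhere. Of 8 measured cytochrome P450 and epoxide genes, limma called 0 and found 2 with an unadjusted p below 0.05. Cyp2c23, the main arachidonate epoxygenase of the rat kidney, was at 0.18 ± 0.07 with an adjusted p of 0.220, and turned to −0.07 with quantile normalization. Cyp4a8, a fatty acid hydroxylase named after its value was seen, was at 0.27 ± 0.11 on its brightest probe, while its 3 kept probes ran from 0.27 to 1.32. It passed when the probes of a gene were averaged. Also named after their values were seen, Cyp4a1 and Cyp4a3 were at −0.55 ± 0.24 and −0.56 ± 0.43, and Cyp4a2 at 0.13 ± 0.07. The Cyp4a genes are related to each other, and how far their probes share signal was not tested.

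**Figure D3:**
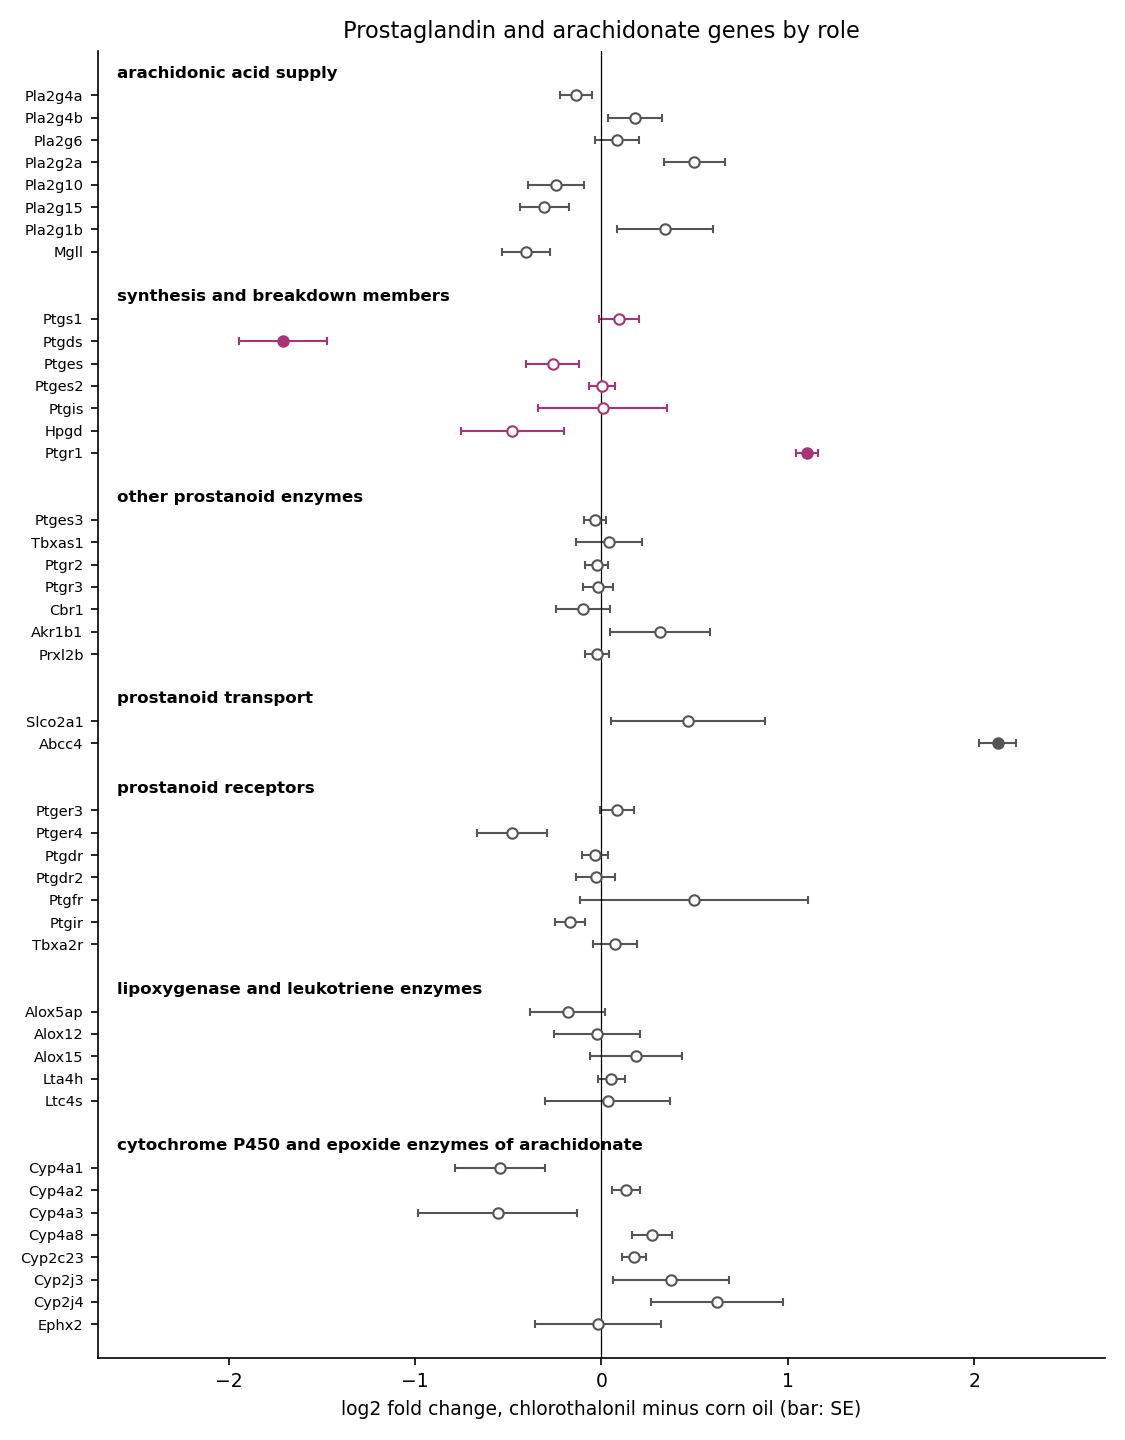
Log2 fold change, chlorothalonil minus corn oil, with SE bars, for the 7 fitted members (purple) and the 37 other fitted genes (grey), ordered by role. Filled points passed an adjusted p of 0.05 in limma over all features: Ptgds at −1.71, Ptgr1 at 1.10 and Abcc4 at 2.13.

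The genes whose pattern over the 6 arrays was nearest to Ptgds and to Ptgr1 were found by the root mean square difference between log2 values centred on their mean, over 11328 genes that were well above background on all arrays. For Ptgds the nearest was Sez6l2, a neuronal membrane protein, at a difference of 0.20, then Lgals2, a galectin, at 0.32, the receptor tyrosine kinase Ros1 at 0.35, the retinol uptake receptor Stra6 at 0.39 and the threonine dehydrogenase Tdh at 0.39. Their log2 fold changes ran from −1.93 for Lgals2 to −1.07 for Ros1, and in limma 0 of the 5 passed, while 5 had an unadjusted p below 0.05. Chlorothalonil replicate 1 was the lowest array for each of these 5 genes, as it was for Ptgds. The genes were picked for likeness to Ptgds over these same arrays, so a shared lowest array is no separate result.

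For Ptgr1 the 4 nearest genes lay closer, at 0.07 to 0.10. They were Gstp3 and Gsta1, which are glutathione transferases, the transketolase Tkt, and the phosphate and anion transporter Slc17a1. Their log2 fold changes ran from 0.94 for Tkt to 1.15 for Gsta1, and all 4 passed in limma. Both sets were picked for patterns that separate the groups, so these counts are a description. Glutathione transferases have near-identical relatives, so their signals may be shared within the family.

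**Figure D4:**
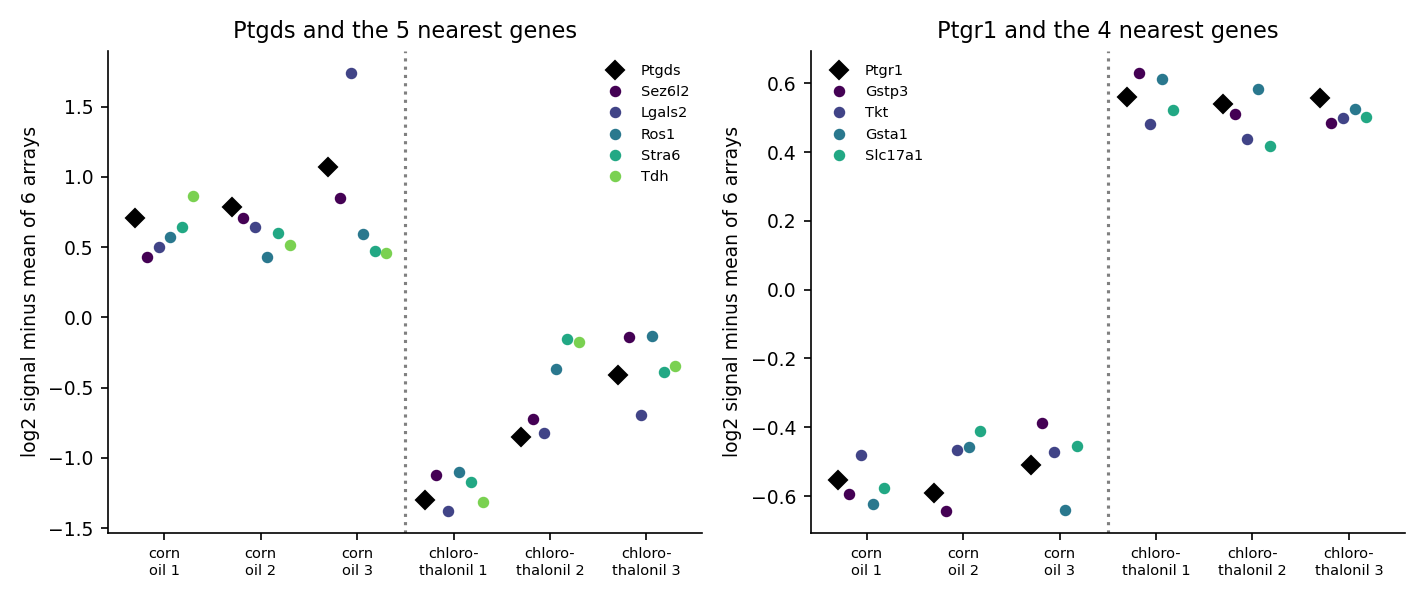
Log2 signal centred on the mean of the 6 arrays, with 1 column of points per array and the corn oil arrays left of the dotted line, for Ptgds and for Ptgr1 (black diamonds), with the 5 nearest genes of Ptgds and the 4 nearest of Ptgr1 (circles). The points around Ptgr1 stay within 0.10 of it by root mean square difference, while those around Ptgds lie 0.20 to 0.39 away.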

How the data were processed

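Spot intensity was deposited by the authors as Agilent Feature Extraction output, version 10.7 per the submitters' processing notes. The processed signal was background-subtracted and spatially detrended within each array, per the file headers, with no scaling between arrays. The deposited value table holds a ratio: it equals the processed signal over 1 constant per array within 1% for 100% of probes with a signal above 50, on a linear scale and not centred. Per array, its median was 0.107, 0.109 and 0.112 for corn oil and 0.105, 0.105 and 0.106 for chlorothalonil. The choice of that constant is not stated in any label or header, but on each array it lay close to the 75th percentile signal. For corn oil replicates 1 to 3 it was 899.83, 960.32 and 933.37, against percentiles of 897.99, 957.99 and 928.87. For chlorothalonil it was 894.46, 931.01 and 842.08, against 892.52, 928.87 and 839.79. The deposited table is therefore nearly the same scaling as the one used here.

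From the intensity, log2 signal minus the array's 75th percentile was taken for the 61537 probes other than controls. Outlier spots, 0 to 9 per array, were left out. Probes well above background on all 3 arrays of a group, with at least 2 values per group, were kept (39862). Accessions without versions were named through a RefSeq table of GRCr8, which matched 28206 probes to 1 gene each, and the promoter came from RefSeq too. The brightest kept probe stood for a gene. The build in the array headers is older, so no coordinates are taken from it. Those of the Ptgds promoter window are from GRCr8. The comparison was fitted in R 4.3.3 with limma 3.58.1 (lmFit, eBayes), with no covariate and Benjamini-Hochberg adjustment over 29115 features. The limma script was tested on simulated data.

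The members and lists were chosen with earlier results of these data known. Genes named were the 9 members, all receptors, genes past the threshold in each pathway list or else the one with the smallest p, and the 5 genes nearest to the member with the largest fall and the largest rise. Of these, 1 gene is not reported here. Alternatives were quantile and median scaling, the deposited table, normexp with an offset of 50 on the median signal (these files have no mean signal), 2 other filters, outlier spots kept, averaged probes, a trend and robust prior, the replicate block and each array left out.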

Additional observations from a re-analysis of the deposited data

How the results depend on the processing

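Under the 16 alternatives Ptgds ran between −1.93 and −1.48, and Ptgr1 between 1.03 and 1.16. Since the groups lie apart for both genes, leaving out an array could not change their direction. The filter, outlier, averaging, prior and block settings reuse the same values of their single probes, and the deposited table has nearly the main scaling. The kept direction is therefore a description and not separate support. The count of changed features was 909, with 378 higher and 531 lower, and with median scaling it was 803, with 435 higher and 368 lower. It was 172 with no filter on dim probes, where Ptgr1 was the 1 member that passed and 0 marker genes passed in limma. With each array left out it ran from 112 to 388, the members that passed from 1 to 2 and the marker genes from 0 to 1. With averaged probes, 2 pathway genes and 0 marker genes passed, and with the trend and robust prior 6 marker genes, against 2. With the replicate block, limma called 0 of 29115 features, and 5271 had an unadjusted p below 0.05, against 5748 without it. Of the members 0 passed then, with 2 at an unadjusted p under 0.05, of the pathway genes 0, with 4, and of the markers 0, with 15. Samples with the same number correlated at 0.09, 0.02 and 0.05 in their deviations from the group means, and those with different numbers at −0.09 to 0.05. Not every sample correlated best with its own number. Correlations this weak cannot tell whether the numbers mark pairs. For Ptgds the SE was 0.13 with the block, against 0.24 without it. The block leaves fewer degrees of freedom.

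Values near 0 changed sign. Of the members, Ptges2 was −0.0064 with quantile normalization and −0.0285 to 0.0529 with each array left out. Ptgis was −0.039 with normexp and −0.364 to 0.294 with each array left out. Ptgdr2 was 0.034 with quantile normalization, 0.021 with median scaling and 0.028 with normexp, and −0.12 to 0.026 with each array left out. Ptgdr was 0.019 with median scaling and −0.076 to 0.0042 with each array left out, and Tbxa2r −0.021 with normexp and −0.047 to 0.149. Ptgfr ran from −0.215 to 0.939 and Alox5ap from −0.345 to 0.042 with each array left out, and Cyp2c23 was −0.067 with quantile normalization. These genes did not pass in any setting. Dim signal limits Hpgds, Ptgs2 and Ptgis.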
